A study of Mus musculus with 2 samples.

Results

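The 10 genes described here encode the core of the *MHC class I* presentation pathway, measured in single alveolar macrophages (AMs) of mouse lung. They were chosen by symbol, and all 10 were matched among the 32285 genes listed for each library. In order of their roles they are the heavy chain genes *H2-K1*, *H2-D1*, *H2-T23* and *H2-M2*, the light chain gene *B2m*, the peptide transporter genes *Tap1* and *Tap2*, the tapasin gene *Tapbp*, and the immunoproteasome genes *Psmb8* and *Psmb9*. AMs were sorted by flow cytometry from lungs of C57BL/6 mice aged 10 weeks, 1 library coming from vehicle-control mice and 1 from mice carrying an orthotopic lung tumor. The tumor was made by injecting Lewis lung carcinoma (LLC) cells, a carcinoma line of the same mouse strain, directly into the left lung, and in the study the LLC cells carried tdTomato, a red fluorescent protein. The labels give neither the number of mice in a library nor the days after injection, and the study's methods state that experimental and control mice were bred apart. With 1 library per condition no test across samples could be made, and condition, breeding and library cannot be told apart in any ratio of tumor over control.

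In the class I pathway, proteasomes cut proteins of the cytosol into peptides, the transporter formed by *Tap1* and *Tap2* carries the peptides into the endoplasmic reticulum, and tapasin holds empty class I molecules beside the transporter until a peptide is bound. The complex of heavy chain, *B2m* light chain and peptide then moves to the cell surface, where CD8+ T cells read it. *H2-K1* and *H2-D1* are classical heavy chains, *H2-T23* encodes the nonclassical Qa-1, a ligand of inhibitory receptors on NK cells, and *H2-M2* is a nonclassical heavy chain gene of the H2-M region. *Psmb8* and *Psmb9* encode catalytic subunits that replace constitutive ones when interferon, above all interferon gamma, acts on a cell, and most genes of the pathway are known as interferon targets.

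In the GRCm38 annotation 9 of the 10 genes lie on chromosome 17, in or near the H2 complex, and *B2m* lies on chromosome 2 (chr2:122147686-122153083, plus strand). *Tapbp* (chr17:33915899-33929292, plus strand) and *H2-K1* (chr17:33996017-34000347, minus strand) come first along chromosome 17, followed by *Psmb9* (chr17:34181987-34187764, minus strand), *Tap1* (chr17:34187553-34197225, plus strand), *Psmb8* (chr17:34197721-34201454, plus strand) and *Tap2* (chr17:34203527-34216321, plus strand). *H2-D1* (chr17:35262730-35267499, plus strand), *H2-T23* (chr17:36029773-36032855, minus strand) and *H2-M2* (chr17:37480851-37483552, minus strand) lie beyond them. The RefSeq starts of *Tap1* and *Psmb9* are 225 bases apart on opposite strands, so that both genes share the sequence between them. Heavy chain genes resemble each other closely, and reads of *H2-K1*, *H2-D1*, *H2-T23* and the H2-Q and H2-T genes could be split among near copies by the authors' counting, so their single values are uncertain to that extent. *Tapbp* shares 3422 bases on the same strand with *Zbtb22*, a zinc finger gene with 938 control and 1096 tumor UMIs over all barcodes.

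The upstream sequences of the genes are shown because the members differed in how they followed the interferon response of the cells. RefSeq windows of 250 bases before the start, on the build GRCm38.p6, were matched for 9 of the 10 genes, and 5 motifs were searched on both strands. The motifs were GAAA and GAAA with 2 bases between them, the core of the interferon-stimulated response element (ISRE) bound by IRF complexes, GAANNGAAA, the similar letters of the interferon consensus sequence (ICS) of classical class I genes, TTCNNNGAA, the letters of the interferon gamma-activated site (GAS), GGG and TTCCC with 2 bases between them, bound by NF-kB, and TGACGC, the CRE-like part of the X2 box through which NLRC5 complexes act. The ISRE core, a motif added after the windows were seen, was found in 2 of 9 windows, those of *B2m* and *H2-T23*, against 2.98% of all 32851 RefSeq windows. The ICS letters were found in 3 of 9 windows, those of *H2-K1*, *H2-D1* and *H2-M2*, against 6.31%. The NF-kB letters and TGACGC were each found in 2 of 9 windows, those of *H2-K1* and *H2-D1*, against 1.53% and 6.12% of all windows, and the GAS letters were found only in that of *Psmb8*, against 7.02%. Windows of *Tap1*, *Tapbp* and *Psmb9* held none of these letters. Only the exact letters were searched, so a window without a match may hold a variant. TGACG followed by A, for example, stands in the windows of *B2m*, *Tap1* and *Psmb9*, and its share over all windows was not counted. The 9 windows are not independent. Those of *H2-K1* and *H2-D1* are near copies over the NF-kB and ICS letters, and those of *Tap1* and *Psmb9* share 225 bases. Capitals mark the matches, and a match is a string of letters and not a shown binding site. The first line is the window upstream of *H2-K1* without the bases nearest to the start, which lie within the annotated gene (chr17:34000348-34000583, minus strand). It holds in this order the NF-kB letters, the ICS letters on the opposite strand and TGACGC.
H2-K1 upstream: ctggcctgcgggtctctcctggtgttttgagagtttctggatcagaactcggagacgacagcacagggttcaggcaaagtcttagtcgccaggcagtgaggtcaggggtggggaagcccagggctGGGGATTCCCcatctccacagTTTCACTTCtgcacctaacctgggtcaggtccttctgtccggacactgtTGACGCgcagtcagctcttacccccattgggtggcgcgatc
The NF-kB and ICS letters lie side by side in both classical heavy chain genes, at chr17:34000429-34000458 (minus strand) for *H2-K1* and at chr17:35262923-35262952 (plus strand) for *H2-D1*, where the stretch falls in a 5′ UTR of another transcript model.
H2-K1 pair: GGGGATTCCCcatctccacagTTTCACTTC
H2-D1 pair: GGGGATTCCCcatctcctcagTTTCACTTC
Both stretches of 30 bases differed by 1 base, A18T, with positions counted from the 5′ end of the *H2-K1* stretch. The window of *H2-M2* (chr17:37483555-37483804, minus strand) held the ICS letters and neither the exact NF-kB letters nor TGACGC. It does hold gggaattcc, the NF-kB letters without their last C, a form that was not searched. It is shown beside that of *H2-K1* because both genes had high ratios of tumor over control. In all cells *H2-M2* had the highest (log2 3.11), while *H2-K1* (1.07) and *Tap1* (1.06) could not be ranked within counting error. The window of *Tap1* held no match, and *H2-D1*, with the same NF-kB, ICS and TGACGC letters as *H2-K1*, had a ratio of 0.61. A link between the letters and the ratios was not tested.
H2-M2 upstream: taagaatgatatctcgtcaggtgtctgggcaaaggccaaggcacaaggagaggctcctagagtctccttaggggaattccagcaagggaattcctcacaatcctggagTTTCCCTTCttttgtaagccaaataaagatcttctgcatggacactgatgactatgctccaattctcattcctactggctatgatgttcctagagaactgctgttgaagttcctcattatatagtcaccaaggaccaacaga
The stretch of *Psmb8* with the GAS letters lies at chr17:34198088-34198117 (plus strand), within a 5′ UTR of a transcript model.
Psmb8 stretch: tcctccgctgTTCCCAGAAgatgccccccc
The stretches with the ISRE core lie at chr2:122147538-122147567 (plus strand) for *B2m* and at chr17:36032806-36032835 (minus strand, within a 5′ UTR of a transcript model) for *H2-T23*, where the core reads on the opposite strand.
B2m stretch: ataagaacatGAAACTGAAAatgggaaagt
H2-T23 stretch: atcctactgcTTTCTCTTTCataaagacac

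The control library held 8485 cell barcodes with 67847088 unique molecular identifiers (UMIs), and the tumor library 9175 barcodes with 70738320 UMIs. Barcodes with at least 500 genes and at most 10% of UMIs from mitochondrial genes were kept, which left 6185 control cells (median 10370 UMIs) and 7666 tumor cells (median 8264 UMIs). The libraries shared 25 barcodes, 17 of them among the kept cells. All 10 AM markers (*Pparg*, *Mrc1*, *Marco*, *Siglecf*, *Siglec1*, *Chil3*, *Ear2*, *Car4*, *Lpl* and *Itgax*) had UMIs in each class of cells described below, and their summed level was 17930 CPM in control and 15430 CPM in tumor cells. Most of that sum was *Chil3* (11660 and 10520 CPM). *Marco*, a scavenger receptor gene, stood at 585 and 207 CPM and *Car4*, a carbonic anhydrase gene, at 251 and 147 CPM.

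Levels are UMIs per 1000000 UMIs summed over the same cells (counts per 1000000, CPM), with exact Poisson intervals at 95%, and ratios carry exact conditional binomial intervals. They cover counting error only, not variation between cells, mice or libraries. Genes with at least 10 UMIs in each group were compared, and a gene was counted as higher or lower when the ratio was at least 1.5-fold. Cells were divided by 2 lists of other interferon-induced genes, a type I list of 14 genes such as *Isg15*, *Ifit1* and *Rsad2* and a gamma list of 12 genes such as *Cxcl9*, *Gbp2* and *Igtp*, in which none of the 10 genes stands. A cell was called interferon-high when its list UMIs exceeded 9.52 per 10000 UMIs, the median plus 3 scaled median absolute deviations (MADs) of the control cells on a log scale, a limit used in both libraries. Of the rest, cells with at least 200 CPM and 2 UMIs of both *Apoe*, a lipid transport gene, and *S100a6*, a calcium-binding protein gene, were called Apoe+S100a6-high.

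By these rules 56 control cells (0.905%) and 576 tumor cells (7.51%) were interferon-high, 28 control cells (0.453%) and 1046 tumor cells (13.6%) were Apoe+S100a6-high, and 6101 control and 6044 tumor cells were in neither class and are called other cells. The classes are ranges of a score rather than cell types, since 62 control and 666 tumor cells lay within 1.5-fold of the interferon limit. In the tumor library 168 cells passed both rules and were counted as interferon-high. Interferon-high tumor cells were deeper (median 11632 UMIs) than other tumor cells (median 7848.5 UMIs), whereas the medians of the control classes lay between 9663 and 10374 UMIs. The AM marker sum was 12950 CPM in interferon-high, 11670 CPM in Apoe+S100a6-high and 16600 CPM in other tumor cells, and *Marco* stood at 24.2 CPM in Apoe+S100a6-high and 264 CPM in other tumor cells. In the control library 3 cells passed both rules, and in them 8 of the 10 AM markers had 0 UMIs.

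When all kept cells were compared, *H2-K1*, *Tap1*, *H2-M2*, *H2-T23*, *Tapbp* and *H2-D1* were at least 1.5-fold higher in the tumor library, and *B2m*, *Tap2*, *Psmb9* and *Psmb8* were higher by less. That is 6 of 10 genes higher, against 8.02% of the 12936 genes compared, and 0 of 10 lower, against 12%. *H2-D1* was past 1.5-fold only by a small margin, and stood below it without mitochondrial and ribosomal protein genes (log2 ratio 0.57), in thinned cells (0.51) and when the CPM of each cell was averaged (0.47). In that average *Tapbp* (0.58) fell below the limit too, which left 4 of 10 genes. Over the 10 genes the log2 ratios had a median of 0.64, against −0.07 over all compared genes. None of the 5 control genes (*Actb*, *Gapdh*, *Ptprc*, *Rplp0* and *Tbp*) passed 1.5-fold in this or any other comparison made.

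Among the classical heavy chains, *H2-K1* stood at 614 CPM (608 to 620) in control and 1287 CPM (1279 to 1296) in tumor cells, from 39839 and 88567 UMIs. The log2 ratio was 1.07 (1.05 to 1.08). The difference lay across the cells and not in a small group, since the 10th, 50th and 90th percentiles of the level per cell were 201, 557 and 1137 CPM in control and 419, 1053 and 2247 CPM in tumor. *H2-D1* stood at 1115 CPM in control and 1704 CPM in tumor cells, a log2 ratio of 0.61 (0.60 to 0.62), just past 1.5-fold. The light chain gene *B2m* differed less, with 1682 CPM in control and 2106 CPM in tumor cells and a log2 ratio of 0.32 (0.31 to 0.34). Its lower tail did not shift upward with the rest, as the 10th percentile per cell was 800 CPM in control and 738 CPM in tumor, while the 90th was 2605 and 3432 CPM.

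Of the nonclassical heavy chains, *H2-T23* stood at 109 CPM in control and 193 CPM in tumor cells (log2 ratio 0.82, 0.78 to 0.86). *H2-M2* was scarce in both libraries, with 34 control and 311 tumor UMIs, or 0.524 and 4.52 CPM (log2 ratio 3.11, 2.60 to 3.66). Its tumor UMIs were concentrated, as 5 cells held 37.0% of them and 1 cell held 35, so the ratio of *H2-M2* describes few cells.

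The pair of transporter genes did not move alike. *Tap1* stood at 22.98 CPM in control and 47.8 CPM in tumor cells (log2 ratio 1.06, 0.97 to 1.15), whereas *Tap2* stood at 38.0 and 48.4 CPM (log2 ratio 0.35, 0.28 to 0.43). The tapasin gene *Tapbp* stood at 190 CPM in control and 301 CPM in tumor cells (log2 ratio 0.67, 0.63 to 0.70). The immunoproteasome genes differed least among the members. *Psmb8* stood at 180 and 201 CPM (log2 ratio 0.15, 0.12 to 0.19), and *Psmb9* at 71.5 and 84.6 CPM (log2 ratio 0.24, 0.19 to 0.30).

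**Figure D1:**
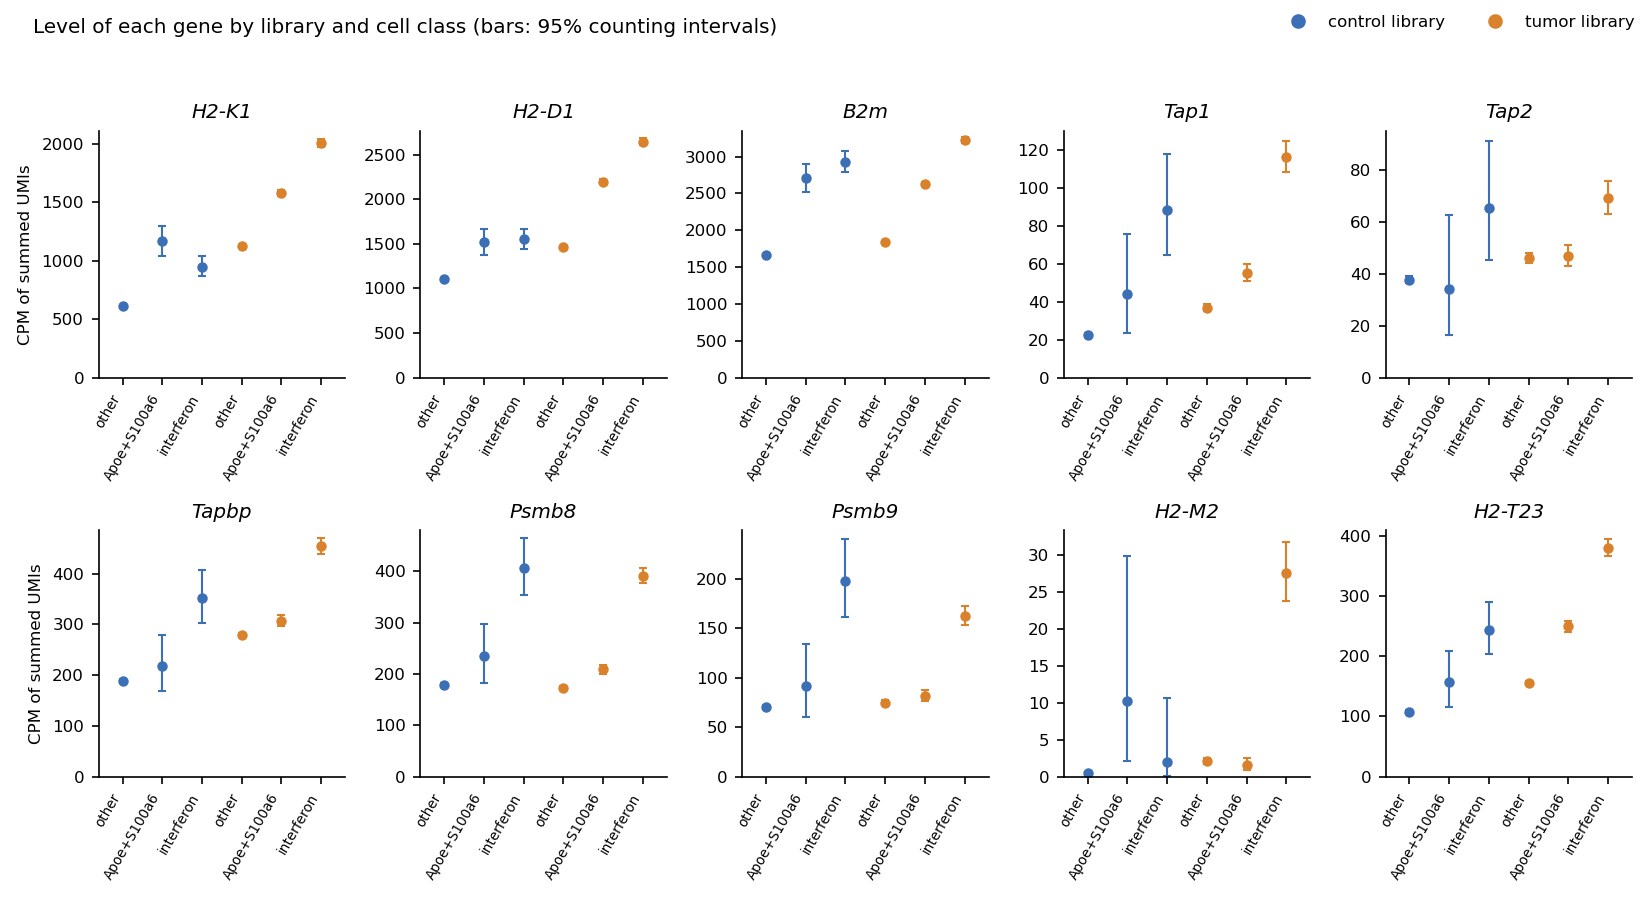
Level of each gene, in CPM of summed UMIs, in other, Apoe+S100a6-high and interferon-high cells of the control library (blue) and of the tumor library (orange), with bars for 95% counting intervals and a separate vertical scale per gene. *H2-K1* in other tumor cells (1126 CPM) lay above its level in interferon-high control cells (949 CPM), while *Psmb8* stood near 400 CPM in interferon-high cells of both libraries (408 and 392 CPM).

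The next question was whether the difference between libraries was present in cells without a high interferon score. In other cells, *H2-K1*, *Tap1* and *H2-M2* were at least 1.5-fold higher in tumor, which is 3 of 10 genes against 7.05% of the 12628 genes compared, and 0 of 10 were lower, against 9.15%. The median log2 ratio was 0.46 for the 10 genes and −0.03 for all genes. *H2-K1* stood at 609 CPM in 6101 control and 1126 CPM in 6044 tumor cells (log2 ratio 0.89, 0.87 to 0.91). Other values were 22.4 and 36.8 CPM for *Tap1* (log2 ratio 0.72), 188 and 279 CPM for *Tapbp* (log2 ratio 0.57) and 108 and 155 CPM for *H2-T23* (log2 ratio 0.52), so that *Tapbp* and *H2-T23* fell just short of 1.5-fold. *H2-D1* stood at 1110 and 1468 CPM (log2 ratio 0.40) and *B2m* at 1667 and 1839 CPM (log2 ratio 0.14). Both immunoproteasome genes stood nearly level between the libraries, with 178 and 173 CPM for *Psmb8* (log2 ratio −0.05, −0.09 to −0.01) and 70.4 and 74.8 CPM for *Psmb9* (log2 ratio 0.09, 0.02 to 0.15). Under stricter quality limits (at least 1000 genes and at most 5% mitochondrial UMIs) 5 of the 10 genes passed 1.5-fold, and with all barcodes 1 did. With all barcodes this was *H2-K1*, as the call of *Tap1* ended (log2 ratio 0.25) and *H2-M2* was not compared. The call of *Tap1* also ended with the type I list alone (0.29). Markers of other cell types differed between other cells of the libraries, with fibroblast markers summing to 0.50 CPM in control and 40.8 CPM in tumor, neutrophil markers to 49.1 and 96.0 CPM and epithelial markers to 83.5 and 22.6 CPM. Without cells holding at least 3 markers of 1 other type, 3 of 10 genes were again higher. Such cells were 41 of 6101 control and 13 of 6044 tumor cells, and the part of these markers in the remaining cells was not tested.

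Within interferon-high cells, 3 heavy chains passed 1.5-fold between the libraries and the peptide-processing genes did not, a contrast that depended on the interferon limit. *H2-K1*, *H2-D1* and *H2-T23* were higher in tumor, which is 3 of 9 genes against 5.97% of the 6096 genes compared, and 0 of 9 were lower, against 17.9%. *H2-M2* had 1 UMI in the control class and was not compared. *H2-K1* stood at 949 CPM (494 UMIs, 56 cells) in control and 2004 CPM (13716 UMIs, 576 cells) in tumor, a log2 ratio of 1.08 (0.95 to 1.21). *H2-D1* stood at 1551 and 2647 CPM (log2 ratio 0.77, 0.67 to 0.87), and *H2-T23* at 244 and 380 CPM (log2 ratio 0.64, 0.38 to 0.91). *Tapbp* (log2 ratio 0.37, 0.16 to 0.59) and *B2m* (0.14, 0.06 to 0.21) were higher in tumor by less than 1.5-fold. Both directions turned with the interferon limit at 5 MADs (−0.40 and −0.33), and that of *B2m* also turned with at least 1000 genes per cell. The ratios of *Tap1* (0.40, −0.03 to 0.86), *Tap2* (0.08, −0.42 to 0.63), *Psmb8* (−0.06, −0.26 to 0.15) and *Psmb9* (−0.29, −0.58 to 0.02) had intervals that included 0, and the depth of 34 to 212 control UMIs could not resolve smaller differences. The count rested on the interferon limit. With the limit at 5 MADs, which left 11 control and 75 tumor cells, 1 gene was higher, and *H2-D1* (0.35) and *H2-T23* (0.05) fell short. When the highest 5% of the cells of each library were taken, 8 were higher. Among them were *Tap1* (1.54), *Tapbp* (0.82), *Psmb9* (0.69), *Tap2* (0.67) and *Psmb8* (0.63).

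Markers of several other cell types stood higher in interferon-high than in other control cells. The summed neutrophil markers were 1336 against 49.1 CPM, endothelial markers 267 against 3.58 CPM, dendritic markers 48.0 against 4.15 CPM, B cell markers 28.8 against 2.08 CPM and fibroblast markers 21.1 against 0.50 CPM, while NK markers had 0 UMIs. The T cell sum (159.5 against 201 CPM) was nearly all *Cd2* (159.5 against 200.4 CPM). The other T cell markers, *Cd3e*, *Cd3d* and *Trac*, had 0 UMIs in interferon-high control cells and were under 0.3 CPM in other control cells. Epithelial markers were near level (94.2 against 83.5 CPM). At least 3 markers of another type were held by 8 of 56 (14.3%) interferon-high control cells and by 8 of 576 (1.39%) interferon-high tumor cells. In the tumor library endothelial markers summed to 22.8 CPM in interferon-high and 2.38 CPM in other cells, the neutrophil sum was 167 and 96.0 CPM, monocyte-derived markers summed to 24.8 and 11.4 CPM, fibroblast markers were lower (13.2 against 40.8 CPM), and B cell markers had 0 UMIs in interferon-high cells. Without all cells holding 3 such markers, tumor over control in interferon-high cells gave log2 ratios of 1.13 for *H2-K1*, 0.82 for *H2-D1* and 0.88 for *H2-T23*, and 3 of 9 genes were again higher. Of the 56 control cells, however, only 1 held 3 neutrophil markers and 0 held 3 dendritic markers. The part of these markers in the remaining cells was not tested.

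**Figure D2:**
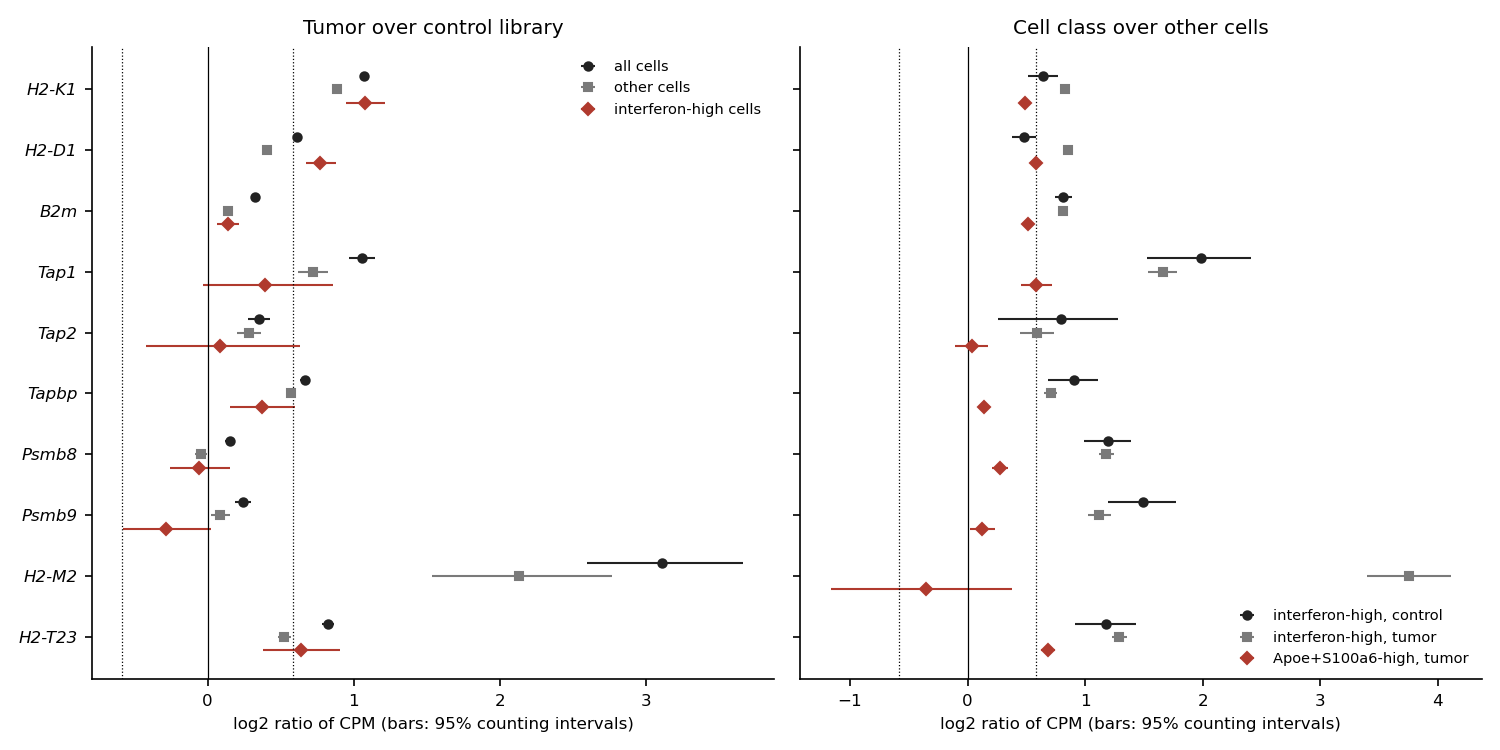
Log2 ratio of the level of each gene, left for tumor over control in all, other and interferon-high cells, right for a cell class over other cells of the same library, with bars for 95% counting intervals and dotted lines at 1.5-fold. In interferon-high cells the heavy chains *H2-K1*, *H2-D1* and *H2-T23* lay right of the dotted line (1.08, 0.77 and 0.64), and no point is drawn for *H2-M2* where a group had under 10 UMIs.

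Interferon-high cells were then set against other cells of the same library. In the tumor library all 10 genes were at least 1.5-fold higher, against 7.58% of the 10581 genes compared, and 0 of 10 were lower, against 8.8%. With the gamma list alone, where the class was larger, 3 of 10 passed, *Tap1*, *H2-M2* and *H2-T23*. The median log2 ratio was 0.99 for the 10 genes and −0.15 for all genes. *H2-M2* had the largest ratio (27.6 against 2.05 CPM, log2 3.75, 3.40 to 4.11), but 33 of the 576 cells held its UMIs and 5 of them held 60.9%. It was followed by *Tap1* (116 against 36.8 CPM, log2 1.66, 1.54 to 1.78). *H2-T23* (380 against 155 CPM), *Psmb8* (392 against 173 CPM) and *Psmb9* (163 against 74.8 CPM) had log2 ratios of 1.29, 1.18 and 1.12. The abundant surface chains formed a narrow group, with log2 ratios of 0.85 for *H2-D1*, 0.83 for *H2-K1* and 0.81 for *B2m*. *Tapbp* had 0.71 and *Tap2* 0.59 (0.45 to 0.74), the smallest of the 10 and at the limit.

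In the control library 8 of 9 genes were at least 1.5-fold higher in interferon-high cells, against 11.6% of the 6104 genes compared, and 0 of 9 were lower, against 5.5%. *Tap1* led (88.4 against 22.4 CPM, log2 1.98, 1.53 to 2.41), and *Psmb9* (198 against 70.4 CPM, log2 1.49), *Psmb8* (408 against 178 CPM, log2 1.19) and *H2-T23* (244 against 108 CPM, log2 1.18) followed. *Tap1* UMIs lay in 21 of the 56 cells, 5 cells held 54.4% of them, and the median per cell was 0 CPM. For *H2-T23* 5 cells held 45.7%, and the medians per cell were 87.8 against 77.1 CPM. Those of *Psmb8* (310 against 145 CPM) and *Psmb9* (163 against 0 CPM) lay further apart. *Tapbp* (352 against 188 CPM), *B2m* (2929 against 1667 CPM) and *Tap2* (65.4 against 37.8 CPM) had log2 ratios of 0.90, 0.81 and 0.79. The classical heavy chains had the smallest ratios in this library, 0.64 (0.51 to 0.77) for *H2-K1* and 0.48 (0.38 to 0.58) for *H2-D1*, which did not pass 1.5-fold. Without cells holding 3 markers of another type, 6 of 9 genes passed, *H2-K1* at 0.58 and *Tap2* at 0.40 falling below the limit. When the highest 5% of control cells were taken as the class, 3 of 9 passed. With all barcodes or the type I list alone, where the class was larger, 0 passed, and with the gamma list alone 1 passed. Under these settings *Tap2* changed sign (as low as −0.09 with the type I list), as did *Tapbp* with the gamma list (−0.02).

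In Apoe+S100a6-high against other tumor cells, *H2-T23* was at least 1.5-fold higher, which is 1 of 10 genes against 6.19% of the 10870 genes compared, and 0 of 10 were lower, against 8.68%. The median log2 ratio was 0.38 for the 10 genes and −0.11 for all genes. *H2-T23* stood at 250 against 155 CPM (log2 0.68, 0.62 to 0.75), *Tap1* at 55.2 against 36.8 CPM (log2 0.58) and *H2-D1* at 2195 against 1468 CPM (log2 0.58), both just under the limit. *B2m* (2631 against 1839 CPM, log2 0.52) and *H2-K1* (1579 against 1126 CPM, log2 0.49) were close to them. The other genes of peptide processing and loading had lower log2 ratios than *Tap1*, 0.27 for *Psmb8*, 0.14 for *Tapbp*, 0.13 for *Psmb9* (81.5 against 74.8 CPM) and 0.03 for *Tap2*. *H2-M2* stood at 1.60 CPM from 18 UMIs (log2 −0.35, −1.16 to 0.38). Under the alternatives the number of genes past 1.5-fold ran from 0 to 5. It was 5 with the median ratio of all genes set to 0, and 0 with all barcodes, with either interferon list alone and with *Apoe* and *S100a6* at 1000 CPM summed, where *H2-T23* stood at 0.48, 0.46 (type I), 0.53 (gamma) and 0.57. The 28 control cells of this class are given as values only, and held 1165 CPM of *H2-K1*, 1515 CPM of *H2-D1*, 2710 CPM of *B2m* and 157 CPM of *H2-T23*. NK markers summed to 262 CPM in those 28 cells and 0.20 CPM in other control cells, and monocyte-derived markers to 71.5 and 6.403 CPM. In the tumor library monocyte-derived markers summed to 19.9 CPM in the class and 11.4 CPM in other cells, and neutrophil markers to 163 and 96.0 CPM. Leaving out cells with at least 3 markers of 1 other type was among the alternatives. It removed 0 of the 1046 class cells and 13 of the 6044 other cells of the tumor library. The part of these markers in the remaining cells was not tested.

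The 168 tumor cells that passed both rules held 2193 CPM of *H2-K1*, 2983 CPM of *H2-D1*, 3489 CPM of *B2m* and 452 CPM of *H2-T23*. These 4 levels lay above those of all interferon-high tumor cells (2004, 2647, 3223 and 380 CPM), of which they are a part. *Psmb8*, at 393 CPM (368 to 421), lay beside the 392 CPM of the whole class.

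Other cells held 73.7% of all UMIs of the tumor library, and less of those of each member, from 56.9% for *Tap1* to 69.9% for *Tap2*, apart from *H2-M2* with 33.4%. Interferon-high cells held 9.95% of all UMIs of the tumor library. They held 60.8% (55.1 to 66.2, exact binomial) of those of *H2-M2*, 24.2% of those of *Tap1*, and 14.2% to 19.6% of those of the remaining 8 genes, lowest for *Tap2* and highest for *H2-T23*. Apoe+S100a6-high cells held 16.3% of all UMIs, and 21.1% of those of *H2-T23*, 21.0% of those of *H2-D1*, 20.4% of those of *B2m* and 20.01% of those of *H2-K1*. *Tap1* (18.9%) and *Psmb8* (17.01%, 16.39 to 17.65) lay above that base by less, and *H2-M2* (5.79%) lay below it. The intervals of *Tapbp* (16.6%, 16.1 to 17.2), *Tap2* (15.8%, 14.6 to 17.1) and *Psmb9* (15.7%, 14.8 to 16.7) included it.

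To follow the genes without a limit, the cells of each library were ordered by interferon score in 6 bands. In the tumor library *H2-K1* stood at 1010, 1227, 1607, 1839, 1999 and 2234 CPM from the lowest 50% to the top 1% of cells. In the control library it stood at 590, 593, 642, 676, 836 and 978 CPM, so that the lowest tumor band (999 to 1022 CPM) lay within the counting interval of the highest control band (897.5 to 1064 CPM, 61 cells) and above the other control bands. *B2m* behaved otherwise, as its lowest bands nearly met (1594 CPM in control and 1655 CPM in tumor) and its highest ones were 3033 and 3409 CPM. *Psmb8* ran from 168 to 447 CPM in control and from 148 to 491 CPM in tumor, and *Psmb9* from 64.5 to 195 CPM and from 64.2 to 227 CPM, so both libraries started and ended close together. *Tap1* had the steepest course of the genes with steady bands, from 29.6 to 174 CPM in tumor (log2 2.56, 2.31 to 2.80) and from 22.3 to 90.1 CPM in control (log2 2.02, 1.57 to 2.43). *H2-T23* ran from 137 to 474 CPM in tumor and from 106 to 259 CPM in control. In control cells the lower bands hardly differed, *Tap1* standing at 22.3, 22.1 and 19.5 CPM in the first 3, whereas in tumor cells it stood at 29.6, 41.3 and 59.9 CPM. *H2-M2* did not follow the score to its end, reaching 43.4 CPM in tumor cells between the 95th and 99th percentiles and 8.25 CPM in the top 1%.

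**Figure D3:**
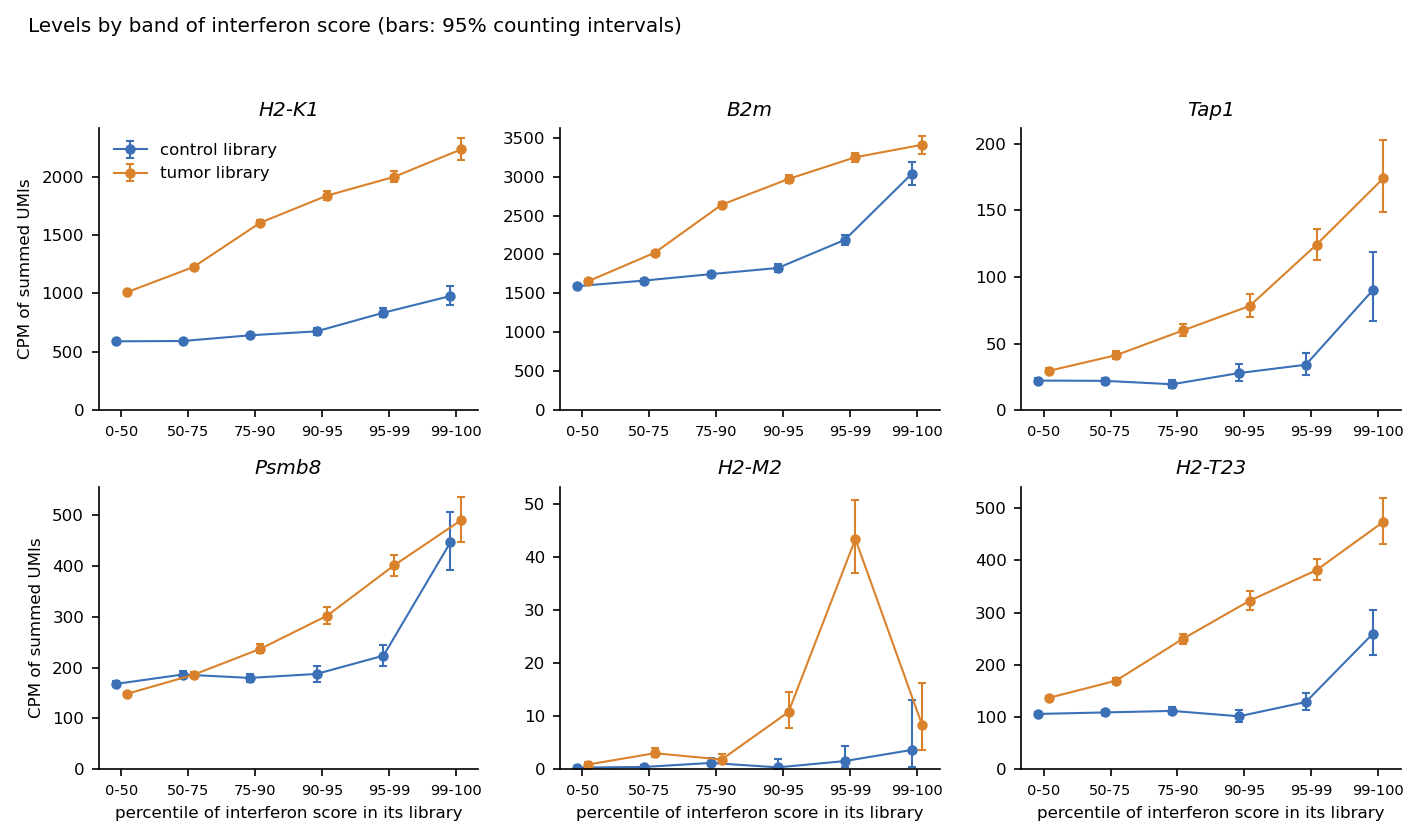
Levels of 6 genes, in CPM of summed UMIs, across bands of the interferon score within the control library (blue) and the tumor library (orange), with bars for 95% counting intervals. The curves of *H2-K1* stayed apart at every band (590 to 978 CPM against 1010 to 2234 CPM), those of *Psmb8* began and ended close together, and *H2-M2* peaked at 43.4 CPM in the band from 95 to 99.

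Bands of equal rank hold higher scores in tumor, 0.48 list UMIs per 10000 in the lowest tumor band against 0.03 in the lowest control band. Cells were therefore also compared at an equal number of list UMIs, after each cell was thinned at random to 3700 UMIs, a comparison added after the data were seen. Among cells with 0 list UMIs of 3700 (4122 control and 3495 tumor cells), tumor over control gave a log2 ratio of 0.77 (0.73 to 0.81) for *H2-K1*, from 604 and 1031 CPM, 0.52 (0.31 to 0.74) for *Tap1*, 0.47 (0.40 to 0.55) for *Tapbp*, 0.37 (0.20 to 0.54) for *Tap2*, 0.36 (0.26 to 0.46) for *H2-T23* and 0.29 (0.26 to 0.32) for *H2-D1*. *B2m* stood at 0.03 (0.00 to 0.05), while *Psmb8* at −0.18 (−0.27 to −0.10) and *Psmb9* at −0.14 (−0.27 to −0.01) were lower in tumor by less than 1.5-fold. With 1 and then 2 list UMIs the ratio of *H2-K1* was 0.88 and 1.06, and with 3 or more it was 0.91 (0.74 to 1.08). *H2-D1* ran from 0.29 through 0.48 and 0.64 to 0.72. *Psmb8* stayed within −0.18 and 0.12 over the 4 groups, so the libraries differed in *H2-K1* and not in *Psmb8* by over 1.5-fold at each number of list UMIs. Cells with equal thinned counts may still differ in their true scores.

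**Figure D4:**
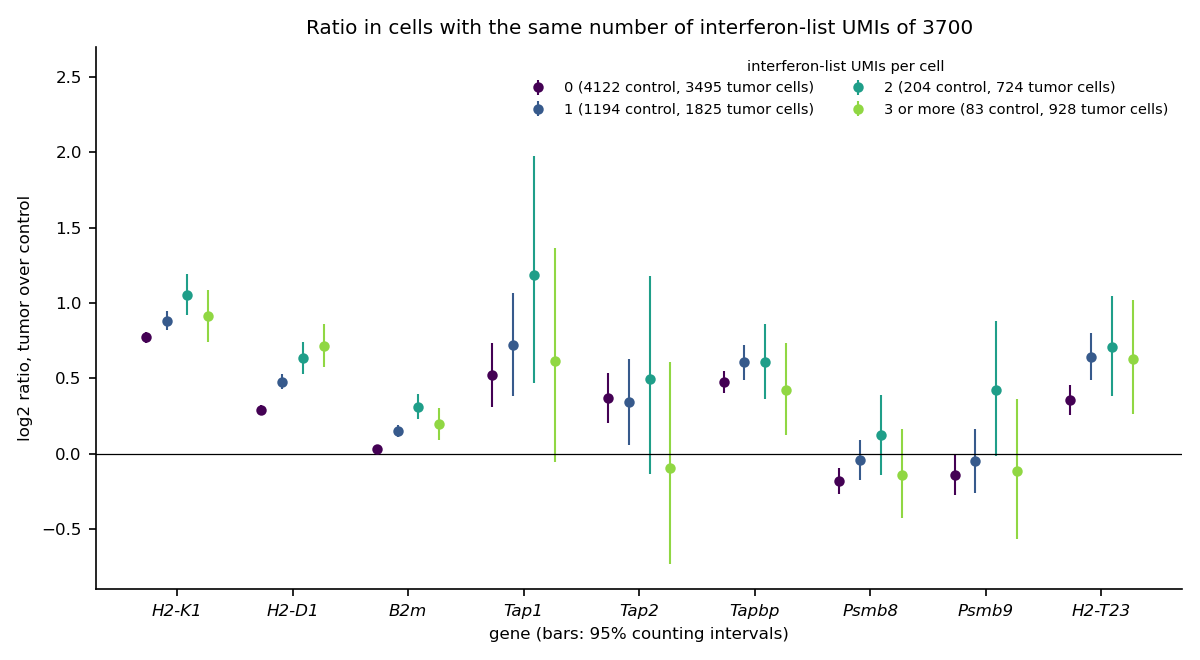
Log2 ratio of tumor over control for 9 genes in cells thinned to 3700 UMIs and grouped by their number of interferon-list UMIs (0, 1, 2, and 3 or more), with bars for 95% counting intervals. *H2-K1* lay between 0.77 and 1.06 in each group of cells and *Psmb8* between −0.18 and 0.12. *H2-M2* had too few UMIs and is not drawn.

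The interferon-high tumor cells were also divided by which list gave more UMIs. *H2-M2* divided sharply, with 150 UMIs or 122 CPM (103 to 143) in the 107 cells with more gamma-list UMIs and 39 UMIs or 6.95 CPM (4.94 to 9.499) in the 469 cells with as many or more type I list UMIs. Among the 107 cells, 5 held 76.7% of these 150 UMIs. The other members differed less between these groups and were all higher in the first, with 2255 and 1949 CPM for *H2-K1*, 3558 and 3149 CPM for *B2m*, 538 and 437 CPM for *Tapbp*, 201 and 154 CPM for *Psmb9* and 429 and 370 CPM for *H2-T23*. *Tap2* was nearly level (71.4 and 68.8 CPM). The same division of the 56 interferon-high control cells, 23 with more gamma-list UMIs and 33 others, went the other way for some members, with 299 (223 to 392) and 462 (393 to 540) CPM for *Psmb8*, 57.4 and 104 CPM for *Tap1* and 184 and 205 CPM for *Psmb9*. *H2-K1* (1212 and 818 CPM) and *H2-T23* (350.3 and 191 CPM) were higher in the first group there too. For *H2-T23* few cells carried this, as 5 of the 23 held 86.9% of its UMIs. Its median per cell went the other way, 0 CPM in the 23 and 106 CPM in the 33 cells, while that of *H2-K1* was 1250 and 707 CPM. All 10 *Tap1* UMIs of the 23 cells lay in 5 of them.

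Each library was clustered without the 10 genes and the other genes of the pathway, which gave 15 control clusters (C1 to C15) and 14 tumor clusters (T1 to T14). *H2-K1* ranged from 500 CPM in C9 to 1100 CPM in C15 among control clusters and from 830 CPM in T3 to 2043 CPM in T7 among tumor clusters, and the second highest control cluster, C4, at 802 CPM, lay below every tumor cluster. T12, with 146 cells led by *Ifit1bl1*, *Rsad2* and *Ifit1*, had the highest *B2m* (3275 CPM), *Tap1* (145 CPM), *Tap2* (84.6 CPM), *Tapbp* (488 CPM), *Psmb8* (423 CPM), *Psmb9* (180 CPM) and *H2-T23* (398 CPM) of the tumor clusters. T7, with 485 cells led by *Cxcl9*, a chemokine induced by interferon gamma, and *Mmp12*, a macrophage elastase, had the highest *H2-K1* and *H2-M2* (38.6 CPM). T4, with 822 cells led by *C1qb* and *Apoe*, stood at 1819 CPM of *H2-K1* and 2995 CPM of *B2m*, with a lower *Tap1* (69.6 CPM) than T12. The highest *H2-D1*, 2728 CPM (2570 to 2894), was in T14, a group of 53 cells led by the fibroblast genes *Dcn* and *Col3a1*, and 2713 CPM was measured in T7. Counting intervals overlapped for *H2-K1* in T7 (2008 to 2079 CPM) and T12 (1926 to 2055 CPM). They also did for *B2m* in T12 (3193 to 3358 CPM) and T7 (3144 to 3233 CPM). Those of *Tap2*, *Psmb8* and *Psmb9* in T12 overlapped those of another tumor cluster. The top ranks of these genes and of *H2-D1* were thus not resolved.

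T7 made up 6.33% of tumor cells and held 241 of the 311 tumor UMIs of *H2-M2* (77.5%, 72.4 to 82.0). In control, C15, with 155 cells led by *S100a9*, *Igkc* and *Ifitm3*, held 12 of 34 (35.3%, 19.8 to 53.5). Without both clusters, a comparison added after the data were seen, *H2-M2* stood at 0.348 CPM in control and 1.12 CPM in tumor (log2 ratio 1.69, 0.98 to 2.45), against 3.11 with them. *H2-D1* moved from 0.61 to 0.54 and no longer passed 1.5-fold, *Psmb8* moved from 0.15 to 0.07, and *Psmb9* from 0.24 to 0.16. The other ratios were 1.01 for *H2-K1*, 1.01 for *Tap1*, 0.74 for *H2-T23*, 0.62 for *Tapbp*, 0.35 for *Tap2* and 0.27 for *B2m*.

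**Figure D5:**
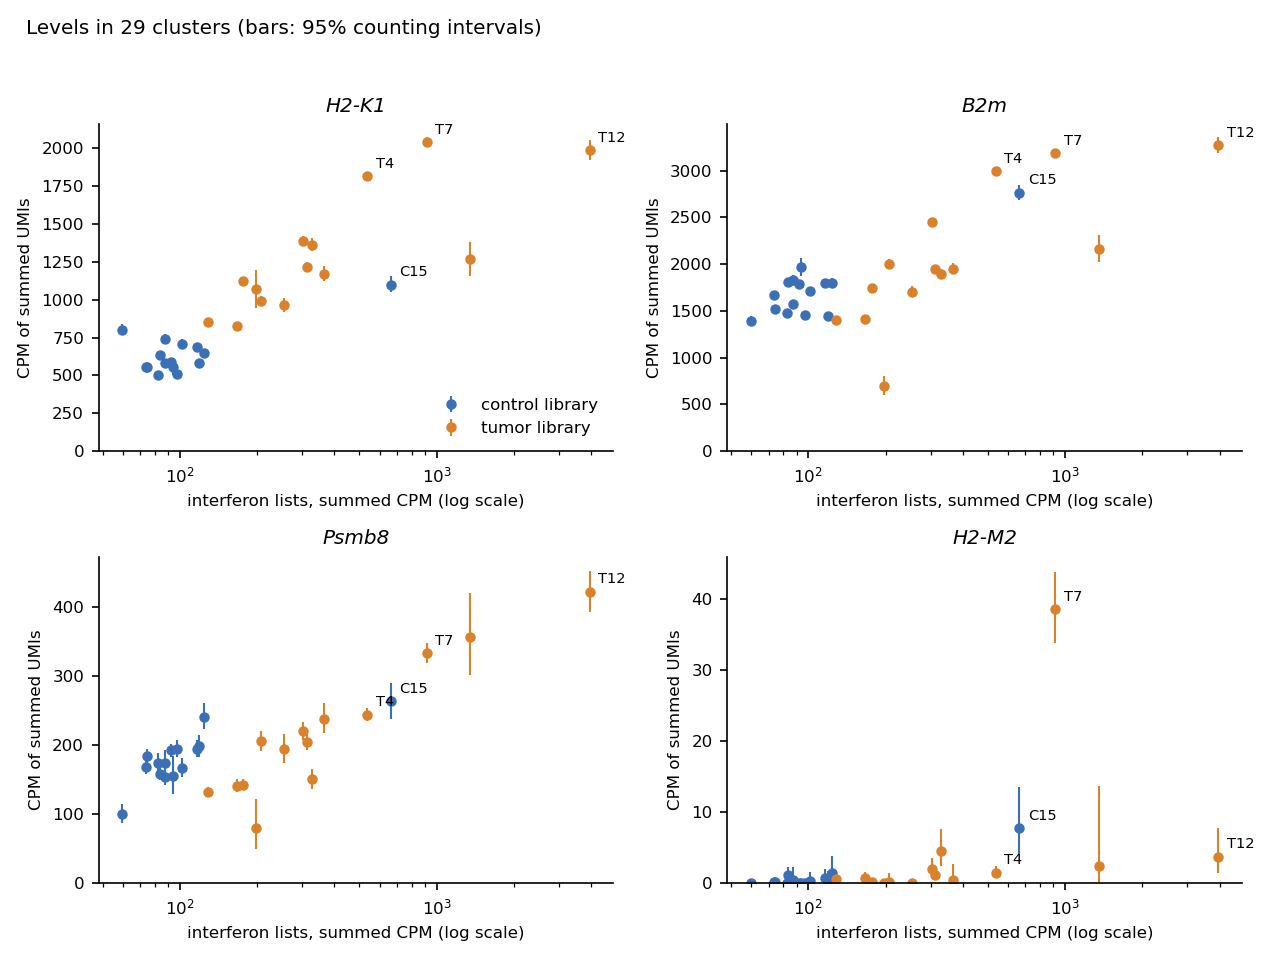
Levels of 4 genes, in CPM of summed UMIs, in the 15 control (blue) and 14 tumor (orange) clusters against the summed level of the interferon lists (log scale), with bars for 95% counting intervals. Tumor clusters of *H2-K1* began at 830 CPM, above 14 of the 15 control clusters, and *H2-M2* stood out in T7 (38.6 CPM).

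Among other genes of the pathway, 43 of the 45 listed were found and 41 were compared in all cells. Of 11 other class I and class I-like heavy chains, 6 were at least 1.5-fold higher in tumor, led by *H2-Q7* (10.1 and 47.5 CPM, log2 ratio 2.24), *H2-T24* (2.14 and 10.0 CPM, 2.23) and *H2-Q6* (5.01 and 23.04 CPM, 2.201). The neonatal Fc receptor gene *Fcgrt*, whose product also pairs with *B2m*, had the lowest ratio (225 and 170 CPM, log2 −0.41). Of 19 regulators and receptors 7 were higher, among them *Nlrc5*, the transactivator of class I genes, at 2.56 and 9.70 CPM (log2 ratio 1.92, 1.67 to 2.18). Of the 11 genes of peptide supply and loading, 0 were higher and 0 lower. In all, 13 of 41 were higher and 0 lower (8.02% and 12% of all genes), with a median log2 ratio of 0.27. In other cells 11 of 41 were higher and 0 lower (7.05% and 9.15% of all genes), and in interferon-high cells 4 of 32 were higher and 1 lower (5.97% and 17.9%).

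In interferon-high over other cells, 16 of 41 pathway genes were higher and 1 lower in tumor (7.58% and 8.8% of all genes), and 14 of 32 were higher and 1 lower in control (11.6% and 5.5%). In tumor, *Nlrc5* (6.86 and 27.0 CPM, log2 1.98), *H2-Q7* (35.8 and 124 CPM, 1.80) and *H2-T24* (7.39 and 24.3 CPM, 1.71) led, and *Fcgrt* was lower (194 and 104 CPM, −0.90). In control, the third immunoproteasome subunit *Psmb10* (109 and 221 CPM, log2 1.02) and the proteasome activator genes *Psme2* (0.98) and *Psme1* (0.95) were among the highest. In Apoe+S100a6-high tumor cells 4 of 41 were higher and 2 lower, near the 6.19% and 8.68% of all genes, with *H2-T24* (log2 0.84) and *Nlrc5* (0.80) highest and *Fcgrt* (−0.97) lowest.

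The *MHC class II* genes, which present peptides from endosomes to CD4+ T cells, were not higher in the tumor library as a group. In all cells 0 of 7 were at least 1.5-fold higher in tumor (8.02% of all genes) and 1, the transactivator *Ciita*, was lower (2.41 and 1.51 CPM, log2 −0.67), against 12% of all genes. In other cells 0 of 7 were higher and 2 lower (7.05% and 9.15% of all genes), and the invariant chain gene *Cd74* stood at 430 CPM in control and 265 CPM in tumor (log2 −0.70), while *H2-K1* stood at 609 and 1126 CPM. Class II levels were uneven among control clusters. C6, with 463 cells led by *H2-Aa* and *H2-Eb1*, summed to 4772 CPM and C15 to 3066 CPM. The remaining control clusters ran from 385 CPM (C5) to 1344 CPM (C11), and the highest tumor sum was 1978 CPM (T7). The part of C6 in the ratios of all and other cells was not tested. In interferon-high cells 0 of 6 were higher in tumor and 4 lower (5.97% and 17.9% of all genes), namely *H2-Eb1* (436 and 115 CPM, log2 −1.93), *H2-Ab1* (628 and 246 CPM, −1.36), *H2-Aa* (505 and 213 CPM, −1.25) and *Cd74* (1495 and 857 CPM, −0.80). The 56 control cells also held B cell (28.8 CPM) and dendritic markers (48.0 CPM), whose part in these ratios was not tested. *H2-Eb1* stood at 607 CPM in the 33 of them with as many or more type I list UMIs and at 97.6 CPM in the 23 others. In interferon-high over other cells class II genes were higher in both libraries, 5 of 7 in tumor (7.58% of all genes) and 4 of 6 in control (11.6%), and in Apoe+S100a6-high tumor cells 4 of 7 were higher (6.19%, median log2 0.68).

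Across single cells thinned to 3700 UMIs, the correlation of the surface chains was higher in the tumor library, where these genes also had more UMIs per cell, and counting noise lowers r more where counts are low. Pearson r was 0.17 in 5603 control and 0.40 in 6972 tumor cells for *H2-D1* and *B2m*, 0.16 and 0.39 for *H2-K1* and *B2m*, and 0.15 and 0.38 for *H2-K1* and *H2-D1*. Within other cells alone these were 0.16 and 0.31, 0.15 and 0.32, and 0.14 and 0.30. The sparser genes gave values near 0, *Psmb8* with *Psmb9* reaching 0.05 and 0.10, which at these counts is no finding. These are descriptions, since cells of a library share its preparation, and their number is no number of replicates.

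Of 5426 genes outside the pathway with at least 20 CPM in each library, those most like the summed members across cells were the lysozyme gene *Lyz2* (r 0.35 in control and 0.57 in tumor), the cathepsin gene *Ctss* (0.27 and 0.54), the ferritin gene *Fth1* (0.23 and 0.47), the interferon-induced *Ifi27l2a* (0.12 and 0.50) and the tetraspanin gene *Cd63* (0.20 and 0.39). *Ctsd*, *Cyba*, *Fabp5*, *Fcer1g* and *Ctsz* followed with means over both libraries from 0.26 to 0.27. The median over all those genes was −0.02.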

How the data were processed

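FACS-isolated AMs were profiled by droplet single-cell RNA-Seq (10x Genomics 3′ chemistry), 1 library per condition. The authors deposited unnormalized UMI counts, with genes in rows and cell barcodes in columns. The submitters' processing notes name Cell Ranger 4.0.0, bcl2fastq 2.20 and mm10, and the study's methods name another Cell Ranger version. Intervals and CPM were computed from summed counts in Python 3.11.15 (numpy 2.4.6, scipy 1.17.1, pandas 2.3.3), and clusters with scanpy 1.11.5 and igraph 0.11.9 (Leiden, resolution 1). No p-value was computed, as cells are not replicates. Doublets were kept in the main values, because the automatic threshold of Scrublet called 0 cells in each library. Methods were tested on simulated counts. Each table was taken as 1 library of the condition in its title, and the hashtags by which the study's methods assign barcodes to samples were not analysed here. The 10 genes, the lists and the class rules were chosen with earlier results of these data known. The genes named are the 10 members, the 4 pathway genes with the highest and the 4 with the lowest ratio in a comparison among those with at least 50 UMIs in each group, and the 10 genes most like the members, apart from 1 gene that is not reported here, while *Ciita*, *Cd74*, *Psmb10* and other examples were chosen after their values were seen. Matched symbols came to 14 of 15 type I and 12 of 12 gamma genes. Alternatives changed the scaling, weighting, filters, doublets, depth and class rules.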

Additional observations from a re-analysis of the deposited data

Results flagged for a closer look

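The barcodes that failed the quality limits, 2300 in control and 1509 in tumor, enter none of the values of the report except where all barcodes are named as an alternative, and *H2-K1* was higher in tumor there too. It stood at 526 CPM (1577 UMIs) in control and 999 CPM (1935 UMIs) in tumor, a log2 ratio of 0.93 (0.83 to 1.02, counting error only). *Tap2* was lower in tumor there, at 37.0 and 25.8 CPM (log2 ratio −0.52, −1.03 to −0.026), against 0.35 in kept cells. The other members had log2 ratios of 0.37 (−0.15 to 0.88) for *Tap1*, 0.32 (−0.21 to 0.84) for *Psmb9*, 0.05 (−0.25 to 0.36) for *Psmb8*, 0.18 (0.09 to 0.27) for *H2-D1*, −0.09 (−0.20 to 0.01) for *B2m*, −0.05 (−0.35 to 0.26) for *H2-T23* and −0.08 (−0.32 to 0.15) for *Tapbp*, and *H2-M2* had 0 UMIs in both. How these barcodes relate to the kept cells was not tested.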

How the results depend on the processing

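No paired analysis was possible because the labels give 1 library per condition. In all cells, tumor over control gave 4 to 6 of 10 genes and the same direction for every gene under 9 alternatives, with *H2-K1* between 0.94 and 1.14. The calls that ended were those of *H2-D1* (0.47 to 0.57 under 3 alternatives) and *Tapbp* (0.58 with the CPM of each cell averaged). Of 882 gene ratios under alternatives, 547 stayed within the interval of the reported value, 319 moved beyond it and 16 changed sign from a reported value whose interval excluded 0. A further 20, counted among the 547 and 319, changed sign from a reported value whose interval included 0. Numbers of genes at least 1.5-fold higher are given next. For Apoe+S100a6-high over other tumor cells (1 of 10) they were 2 without mitochondrial and ribosomal genes, 5 with the median ratio of all genes set to 0, 2 with at least 1000 genes and at most 5% mitochondrial UMIs, 0 with all barcodes, 2 without the highest Scrublet scores, 2 without cells holding 3 markers of another type, 0 with either interferon list alone, 3 at 400 CPM, 5 with cells of both classes moved to it, and 0 at 1000 CPM summed, an alternative added after seeing the data. For tumor over control in other cells (3 of 10) they were 5 with at least 1000 genes, 1 with all barcodes and 5 with a limit at 5 MADs. For interferon-high cells (3 of 9) they were 6 with all barcodes, 1 at 5 MADs, 8 with the highest 5% of each library, 5 with the type I list and 6 with the gamma list, and thinning gave 1 gene lower in place of 0. For interferon-high over other cells they were 0 with all barcodes, 3 with the highest 5%, 0 with the type I list and 1 with the gamma list in control (8 of 9), and 3 with the gamma list in tumor (10 of 10). With all barcodes or 1 list the limit fell to 0 list UMIs and the class grew to at least 1330 control and 3499 tumor cells, while at 5 MADs it held 11 and 75. Log2 ratios whose interval excluded 0 changed sign in interferon-high cells for *B2m* (−0.030 with at least 1000 genes, −0.33 at 5 MADs) and *Tapbp* (−0.40 at 5 MADs). In other cells this held for *B2m* (−0.10 with all barcodes, −0.084 with the type I list), *Psmb9* (−0.15 with all barcodes, −0.000936 thinned, −0.14 with the type I list) and *Psmb8* (0.064 at 5 MADs, 0.0058 with the highest 5%). In interferon-high over other control cells it held for *Tap2* (−0.074 with all barcodes, −0.091 with the type I list, −0.047 with the gamma list) and *Tapbp* (−0.017 with the gamma list), and in Apoe+S100a6-high cells for *Psmb9* (−0.060 with all barcodes, −0.093 with the type I list). Among ratios whose interval included 0, signs changed in interferon-high cells for *Tap1* (to −0.50 at 5 MADs), *Tap2* (as low as −0.67, thinned), *Psmb8* and *Psmb9* (as high as 0.63 and 0.69 with the highest 5%), and in Apoe+S100a6-high cells for *Tap2* (as low as −0.12 with all barcodes) and *H2-M2* (as high as 1.18 with cells of both classes moved to it). Beyond class size the cause was not tested. Leaving out the shared barcodes, added after seeing the data, changed no count. Depth limits the 56 interferon-high control cells most, where 34 *Tap2* and 46 *Tap1* UMIs were counted.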
